A study of Mus musculus with 8 samples.

Results

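Annexins, S100 proteins and galectins are 3 families of proteins that bind calcium, membrane lipids or sugars. The 10 genes described here were Anxa1, Anxa2, Anxa3, Anxa5, S100a4, S100a6, S100a10, S100a11, Lgals1 and Lgals3, taken by symbol from the 23100 loci of the authors' gene table. Each had a locus of its own, and together they had 12 of the 35754 rows of the isoform table. The list was drawn up with the difference between the genotypes in view, so the values of these genes in that contrast are a description, and no test was made on them. RNA was sequenced from cardiac ventricles, without atria, of 8 mice aged 4.5 months. All 8 animals carried loxP-flanked alleles of both targeted genes (Sox5fl/fl, Sox6fl/fl). The 4 DKO animals were also positive for aMHC-Cre, a recombinase under a promoter of cardiomyocytes, and the 4 Ctrl animals were negative for it. No group with Cre and without floxed alleles was used here, so Cre itself and the deletion cannot be told apart. Deletion by cell type was not measured.

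Annexins bind acidic phospholipids when calcium rises and act in membrane repair, vesicle traffic and the marking of dying cells. S100 proteins are EF-hand calcium sensors that work mostly as dimers, and several dock onto annexins. Galectins bind beta-galactoside sugars on glycoproteins inside and outside the cell. In the heart, fibroblasts, endothelial cells and macrophages make many of these proteins, and galectin-3, the product of Lgals3, is used as a blood marker of heart failure.

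All levels are the authors' FPKM (fragments scaled by transcript length and by the number of mapped reads), with 1 value per genotype for its 4 animals together. No value per animal was at hand, so no level or fold below has an error, and whether animals of the genotypes overlapped is not known. Folds and log2 ratios set DKO over Ctrl. A gene is said to be called, or to have risen or fallen, where the authors' Cuffdiff test over 12133 genes gave a q of at most 0.05. Of the targeted genes, Sox6 was called lower in the authors' deposited table, with 1.69 FPKM in DKO against 3.39 in Ctrl. Sox5, at 0.497 and 0.369 FPKM, was not tested.

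In DKO ventricles 5 of the 10 genes were called higher, Lgals3, S100a4, Anxa1, Anxa2 and Lgals1, and none was called lower. Among all tested genes, 4.30% were called higher and 3.06% lower. The folds of the 5 called genes ran from 1.24 to 2.66, and those of the other 5, Anxa3, Anxa5, S100a6, S100a10 and S100a11, from 1.02 to 1.17. All 10 log2 ratios were above 0, with a median of 0.27, beside 48.9% of tested genes above 0 and a median of -0.0042. Because the genes were chosen on this contrast, nothing is read from these shares. In bulk tissue, more cells of a type and more RNA per cell cannot be told apart.

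**Figure D1:**
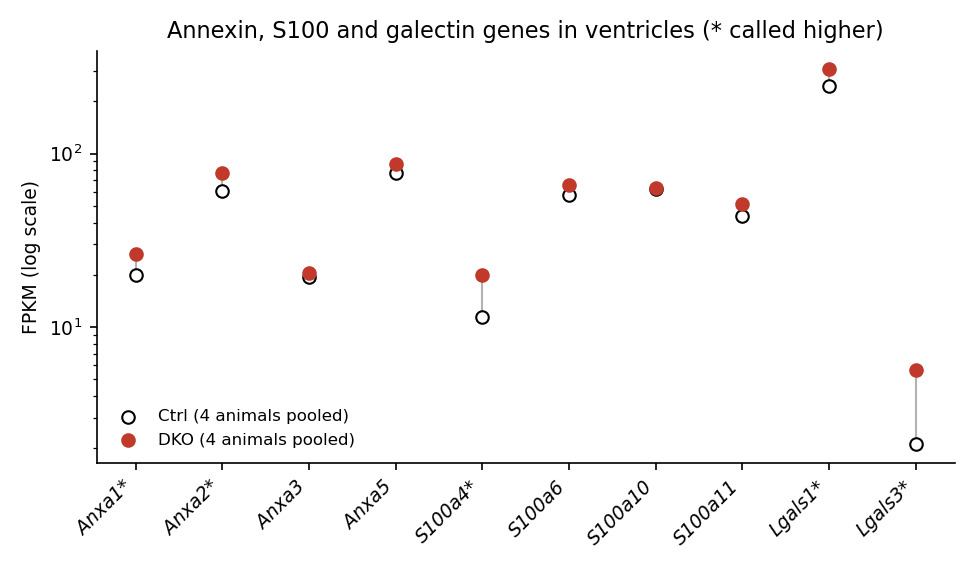
FPKM (log axis) of the 10 genes in Ctrl (open circles) and DKO (filled circles), 1 pooled value per genotype without an error; asterisks mark genes called higher by the authors. Lgals1 is the most abundant and Lgals3 the least, and the widest gaps are those of Lgals3 and S100a4.

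Lgals3, the galectin that macrophages make in large amounts and that forms oligomers on the cell surface, had the highest fold of the 10 and the lowest level. Its level was 5.65 FPKM in DKO against 2.12 in Ctrl, a 2.66-fold difference, or 1.41 on the log2 scale. By log2 ratio it ranked 27 of the 522 genes called higher, while its Ctrl level ranked 10594 of the tested genes. Lgals1, a secreted galectin that forms dimers, had 305 FPKM in DKO against 246 in Ctrl, 1.24-fold. Its Ctrl level ranked 353, and it ranked 505 of the 522 by log2 ratio. The galectins thus stood at opposite ends of the 10 genes in level, and of the 5 called genes in fold. Lgals1 alone made up 40.9% of the summed FPKM of the 10 genes in Ctrl and 42.3% in DKO, and 49.0% of the summed difference of 120 FPKM. In the mm9 build, Lgals3 lies on chromosome 14 at 47993535 to 48005842 and Lgals1 on chromosome 15 at 78757155 to 78760895.

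S100a4, also known as fibroblast-specific protein and a binder of non-muscle myosin, had 19.9 FPKM in DKO against 11.5 in Ctrl, 1.73-fold, and ranked 141 of the genes called higher. The other 3 S100 genes of the list had higher levels than S100a4 in both genotypes and were not called. S100a6, or calcyclin, was at 66.1 and 58.0 FPKM (1.14-fold) and S100a11, which binds annexin A1, at 51.3 and 43.8 FPKM (1.17-fold). S100a10, whose protein p11 has EF-hands that no longer bind calcium, was at 63.6 and 62.3 FPKM (1.02-fold), the smallest fold of the 10.

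Anxa1, a protein induced by glucocorticoids that limits leukocyte entry, had 26.2 FPKM in DKO against 20.0 in Ctrl (1.31-fold). Anxa2, which with S100a10 forms a receptor for plasminogen and its activator, was at 77.1 and 61.2 FPKM (1.26-fold). Both annexins were called higher, with ranks of 429 and 484 among the 522. Anxa5, known from its use as a probe for phosphatidylserine on dying cells, was at 86.5 and 77.3 FPKM (1.12-fold), and Anxa3 at 20.5 and 19.5 FPKM (1.05-fold), and neither was called. In mm9, Anxa1 lies on chromosome 19 at 20447924 to 20465161, Anxa2 on chromosome 9 at 69301490 to 69339592, Anxa5 on chromosome 3 at 36347846 to 36374809 and Anxa3 on chromosome 5 at 97222404 to 97274987.

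Several annexins and S100 proteins bind each other, and most have more than a single partner. The levels of 2 such pairs were set side by side. The FPKM of Anxa2 divided by that of S100a10 was 1.21 in DKO and 0.981 in Ctrl. For Anxa1 over S100a11 it was 0.511 and 0.457. In both pairs the annexin was called higher and the S100 gene was not. The difference between partners was not tested.

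Among the called genes of the 3 families the q nearest to the threshold was that of Lgals1, at 0.0185 in the authors' deposited table. Just outside the threshold was Anxa7, a gene that is not among the 10, whose q was 0.0693 in the authors' deposited table. Among the 10, the uncalled gene nearest to the threshold was S100a11, whose q was 0.380 in the authors' deposited table.

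The promoters of 5 of these genes are shown because they set side by side the genes with the highest folds (Lgals3 and S100a4), the uncalled neighbour of S100a4 (S100a6), and the promoters with a match to an AP-1 motif (Anxa2, called, and S100a11, not called). They come from the RefSeq table of build GRCm38.p6, which held 7 of the 10 genes. Each runs 5′ to 3′ on the gene's strand from 250 bases before the RefSeq start. It stops at the start or, where a GENCODE transcript of the gene begins earlier, at that point. Capitals mark matches on either strand to any of the motifs searched. The Sox core, bound by Sox proteins, was searched as AACAAT. The AP-1 motif was searched as TGANTCA. The motif of TEAD factors was searched as GGAATG. The GC box was searched as GGGCGG. The TATA box was searched as TATAAA.
Lgals3: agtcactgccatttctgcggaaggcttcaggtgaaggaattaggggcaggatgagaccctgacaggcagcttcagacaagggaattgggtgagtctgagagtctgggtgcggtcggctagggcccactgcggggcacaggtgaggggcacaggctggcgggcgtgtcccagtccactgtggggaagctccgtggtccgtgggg
S100a4: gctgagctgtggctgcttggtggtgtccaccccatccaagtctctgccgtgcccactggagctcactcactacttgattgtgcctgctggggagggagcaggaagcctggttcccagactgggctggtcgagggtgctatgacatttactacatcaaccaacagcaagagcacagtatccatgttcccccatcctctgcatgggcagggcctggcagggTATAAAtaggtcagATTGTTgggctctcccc
S100a6: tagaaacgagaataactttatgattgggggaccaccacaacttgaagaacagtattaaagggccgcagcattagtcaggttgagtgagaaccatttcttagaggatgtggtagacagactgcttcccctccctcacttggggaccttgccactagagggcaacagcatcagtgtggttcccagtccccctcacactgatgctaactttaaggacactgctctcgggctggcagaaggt
Anxa2: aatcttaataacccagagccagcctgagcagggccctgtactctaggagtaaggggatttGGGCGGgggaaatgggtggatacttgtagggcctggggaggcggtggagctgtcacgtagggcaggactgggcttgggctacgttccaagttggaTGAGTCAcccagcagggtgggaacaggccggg
S100a11: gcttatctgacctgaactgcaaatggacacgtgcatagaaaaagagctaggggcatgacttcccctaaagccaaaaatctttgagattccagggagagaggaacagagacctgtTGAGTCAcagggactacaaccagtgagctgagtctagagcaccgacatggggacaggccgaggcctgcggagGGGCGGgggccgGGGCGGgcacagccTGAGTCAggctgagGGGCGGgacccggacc
In that order they lie at chr14:47373610-47373812, chr3:90603520-90603769, chr3:90612644-90612881, chr9:69453433-69453619 and chr3:93520246-93520487, all on the plus strand. The capitals in S100a4 are a TATA box, beginning at -31 from the start, and the Sox core on the opposite strand, beginning at -17. In Anxa2 they are a GC box at -190 and the AP-1 motif at -95. In S100a11 they are the AP-1 motif at -136 and -38 and a GC box at -64, -52 and -24. The printed stretches of Lgals3 and S100a6 hold none of the 5 motifs. In the bases before the start that are not printed, Lgals3 has a GC box on the opposite strand at -7. Anxa2 has a GC box at -48 and -24 and a TATA box at -17 in its unprinted bases. Within the 250 bases, the Sox core was present in 1 of the 7 promoters (S100a4) and in 9.42% of 32851 RefSeq promoters. The AP-1 motif was present in 2 of the 7 and in 6.75% of all, the GC box in 3 of the 7 and in 32.7%, the TATA box in 3 of the 7 and in 12.4%, and the TEAD motif in 1 of the 7, Anxa1, and in 12.6%. The matches overlapped no other match. These are matches of letters, and no binding was measured.

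The other genes of each family are set beside those of the list. Because the list was chosen on this contrast, nothing is read from the difference between listed and other genes. Of the 12 annexin genes listed, 9 were tested, and the calls were Anxa1 and Anxa2, beside 4.30% of all tested genes called higher. The 5 tested annexins outside the list held no call and had a median log2 ratio of 0.02. They included Anxa6, an abundant annexin of heart muscle, with 105 FPKM in DKO against 115 in Ctrl. Anxa7 was at 46.7 and 39.1 FPKM, Anxa11 at 26.9 and 26.6, and Anxa4 at 19.5 and 16.8. Summed over the family, the 4 annexins of the list came to 210 FPKM in DKO and 178 in Ctrl, and the 8 others differed by under 1 FPKM in their sum.

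Of 16 S100 genes listed, which leave out S100a2 (at 0 in both genotypes), 9 were tested and 2 were called higher, beside 4.30% of all tested genes. They were S100a4 and S100a13, a factor in the export of proteins that lack a signal peptide. S100a13 is not among the 10 and had 60.9 FPKM in DKO against 44.9 in Ctrl, 1.36-fold. Its q was 0.00158 in the authors' deposited table. S100a1, the main S100 protein of cardiomyocytes, which acts on the ryanodine receptor and the calcium pump of the sarcoplasmic reticulum, had 1328 FPKM in DKO against 1218 in Ctrl (1.09-fold) and was not called. S100a16 was at 49.7 and 52.1 FPKM. Among galectins, 6 of 8 loci were tested and the calls were Lgals1 and Lgals3, again beside 4.30% of all tested genes called higher. The 4 other tested loci had log2 ratios from -0.19 to 0.01. They included Lgals8 (25.9 and 25.7 FPKM), Lgals9, a ligand of checkpoint receptors on T cells (21.6 and 22.1 FPKM), and the joint locus of Lgals4 and Lgals6 (21.1 and 22.2 FPKM), near-identical copies whose reads cannot be assigned to one of them here.

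**Figure D2:**
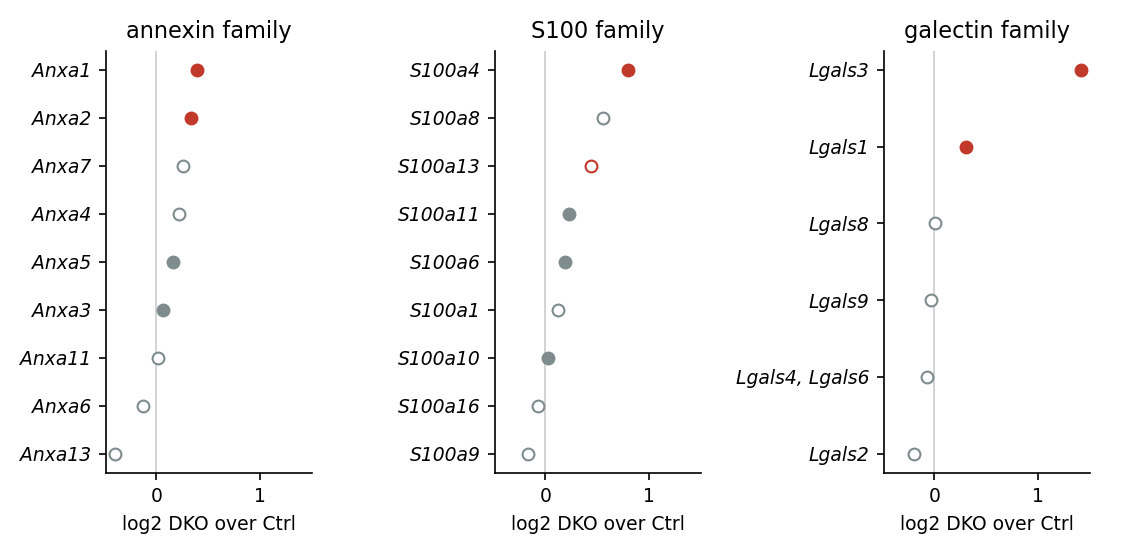
Log2 ratio of DKO over Ctrl (horizontal axis) for each tested gene of the 3 families; filled circles are the genes of the list, open circles other members, and red marks genes called higher. Red points lead the annexins and the galectins. Among S100 genes the uncalled S100a8 (0.55) lies between S100a4 (0.79) and S100a13 (0.44), and uncalled points of each family lie on both sides of 0.

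The 4 S100 genes of the list share a chromosome. In mm9, chromosome 3 held 14 S100 genes in the authors' table, 12 of them within 185 kb and S100a11 and S100a10 about 3 Mb further on. S100a4 (90407692 to 90409967) and S100a6 (90416816 to 90419188) begin 9.12 kb apart with S100a5, listed at 0 in both genotypes, between them. S100a11 (93324418 to 93330210) and S100a10 (93359039 to 93368567) begin 34.6 kb apart. In the block of 12, 7 genes were tested and 2 were called higher, S100a4 and S100a13, beside 4.30% of all tested genes. S100a13 begins 104 bases after the end of S100a1, whose level was far higher and whose fold was 1.09, against 1.36 for S100a13. The library kit named in the labels does not keep strand, and whether reads of S100a1 were counted for S100a13 was not tested. Uncalled genes lay on either side of S100a13 and S100a4, and the nearest neighbours of S100a4, S100a3 and S100a5, were at or near 0.

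**Figure D3:**
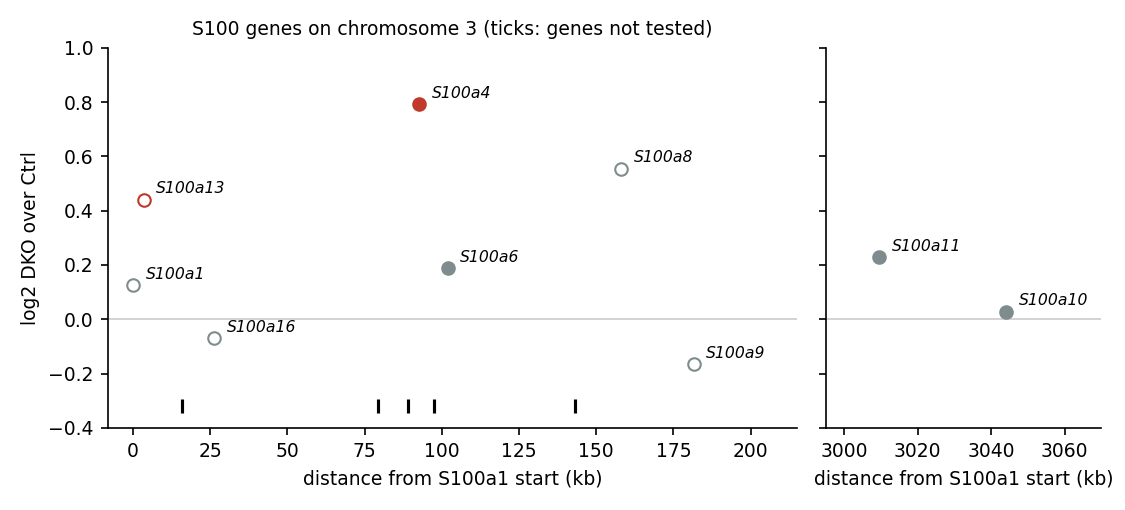
Log2 ratio of DKO over Ctrl of the tested S100 genes on chromosome 3 against distance in kb from the start of S100a1, in 2 panels because of the gap between the blocks; filled circles are genes of the list, red marks genes called higher, and ticks show genes that were not tested. S100a4 stands at 0.79 and its neighbour S100a6 at 0.19.

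At the isoform level, 8 of the 10 genes had a single isoform, equal in FPKM to the gene. Of the 12 isoform rows 4 were called higher, those of S100a4, Anxa1, Anxa2 and Lgals1, beside 1.90% of all tested isoforms. Lgals3 was the called gene without a called isoform. Its isoform of 1406 bases had 3.34 FPKM in DKO against 0.785 in Ctrl (4.25-fold), and its isoform of 1379 bases had 2.31 against 1.34 FPKM (1.73-fold). The longer one made up 59.1% of the gene's FPKM in DKO and 37.0% in Ctrl. In the authors' deposited table the q was 0.625 for the longer and 0.756 for the shorter isoform. Their lengths differ by 27 bases, and in the GENCODE annotation of GRCm38 the matching transcripts have first exons whose ends differ by 27 bases and the same coding exons, so few reads could tell them apart. S100a6 had the annotated isoform of 719 bases (27.0 and 25.3 FPKM) and a spliced form of 711 bases outside the reference annotation (39.1 and 32.7 FPKM), and neither was called.

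**Figure D4:**
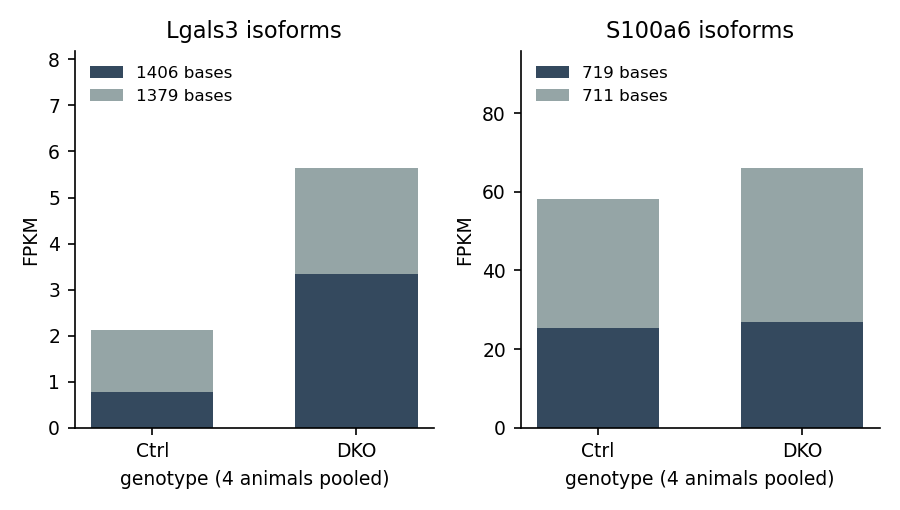
FPKM of the 2 isoforms of Lgals3 (left) and of S100a6 (right) in Ctrl and DKO, stacked, with colours by isoform length and no error because each bar is 1 pooled value. Both Lgals3 isoforms are higher in DKO, and the 1406-base form takes the larger part there.

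All 10 genes had 1 transcription start site group and 1 coding sequence row, and 5 were called higher at each of these levels, beside 2.95% of start site groups and 2.98% of coding sequences. The 5 were those called as genes. All 10 start site rows and 9 of the 10 coding sequence rows equalled the gene in FPKM, so these calls repeat the gene calls. S100 isoforms of the list were 499 to 719 bases long, galectin isoforms 800 to 1406 and annexin isoforms 1374 to 1723. Within each family, 1 GENCODE transcript per gene of the list was compared, and its length could differ from that of the isoforms above. The longest run of identical bases between 2 genes was 16 bases for annexins, 13 for S100 genes and 15 for Lgals1 and Lgals3. Other genes and pseudogenes were not compared.

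Receptors and binding partners are given by list, beside 4.30% of all tested genes called higher and 3.06% called lower. Of 23 tested partners, 2 were called higher and none lower, with a median log2 ratio of 0.06. They were Ptprc, the CD45 phosphatase of leukocytes and a glycoprotein ligand of galectin-1 (3.42 against 2.07 FPKM), and Cd44, a hyaluronan receptor (4.55 against 2.84 FPKM). Of 14 tested enzymes and glycoproteins that build or carry galectin ligands, Cd63, a tetraspanin of late endosomes (115 against 89.8 FPKM), and Emilin1, an elastic fiber glycoprotein (8.98 against 6.75 FPKM), were called higher. Phosphatidylserine recognition held 1 call of 12 tested genes, Thbs1, a matricellular bridge between dying cells and phagocytes (4.32 against 1.98 FPKM). The median of this list was 0.20, and 11 of 12 log2 ratios were above 0, beside 48.9% of all tested genes. Ratios above 0 numbered 14 of 23 for partners and 11 of 14 for galectin ligands. For membrane repair they numbered 11 of 17, and for other EF-hand proteins 18 of 25. Membrane repair genes, the ferlins, calpains and caveolar proteins that act with annexins at torn membranes, held no call of 17, with a median of 0.06. The most abundant of them were Capns1, the small calpain subunit (241 and 250 FPKM), and Smpd1, acid sphingomyelinase (100.4 and 107 FPKM). Of 25 other EF-hand proteins, Efhd2 was called higher (16.6 against 11.3 FPKM) and Tesc, or tescalcin, lower (116 against 152 FPKM), with a median of 0.05. Across all tested genes 7.36% were called in either direction, and nothing is read from the counts of these lists. A few genes, such as Lgals3bp and Ahnak, stand in more than 1 of these lists.

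Many fibroblast and macrophage markers were also called higher in DKO. All marker lists were drawn up with earlier results of these data known. Their counts are therefore a description, and nothing is read from the shares set beside them. Of 15 fibroblast markers, 10 were called higher, beside 4.30% of all tested genes, with a median log2 ratio of 0.33 and a summed level of 1109 FPKM in DKO and 861 in Ctrl. The most abundant were Dcn (465 and 376 FPKM) and Vim (163 and 128 FPKM). Of 10 tested markers of activated fibroblasts, 8 were called higher, with a median of 0.88 and sums of 475 and 353 FPKM, led in level by Acta2 (378 and 302 FPKM) and Postn (33.5 and 15.4 FPKM). Acta2 made up most of both sums, and which cells its RNA came from was not measured. Of 19 macrophage markers, 14 were called higher, with a median of 0.60 and sums of 453 and 297 FPKM, led in level by Lyz2 (189 and 107 FPKM) and C1qb (63.3 and 45.8 FPKM). None of these 3 lists had a marker at 0. The median of the 10 genes, 0.27, lay below those 3 medians. Lgals1, Anxa2, Anxa1, S100a4 and Lgals3 had log2 ratios of 0.31, 0.33, 0.39, 0.79 and 1.41. The uncalled genes of the 10 ran from 0.03 (S100a10) to 0.23 (S100a11). The part that these cell types play in the levels of the 10 genes was not tested.

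Markers of the other cell types listed held 1 call in all, beside 7.36% of all tested genes called in either direction. Endothelial markers held no call of 14, with a median of -0.05 and sums of 1662 and 1727 FPKM, and Fabp4 (1079 and 1111 FPKM) and Egfl7 (84.9 and 90.6 FPKM) were the most abundant. Mural and smooth muscle markers held no call of 11, with a median of 0.04 and sums of 2222 and 1950 FPKM, mostly Des (1675 and 1389 FPKM), which muscle cells also express, and Rgs5 (186 and 181 FPKM). Cardiomyocyte markers held 1 call of 12, the lower Cox6a2, with a median of -0.21 and sums of 70980 and 82223 FPKM. Myl2 (17014 and 20639 FPKM) and Actc1 (12506 and 13546 FPKM) led them, so the defining genes of the labelled tissue were present. Neutrophil markers summed to 6.80 and 5.80 FPKM, with S100a9 at 2.45 and 2.75 and S100a8 at 2.84 and 1.93, and lymphocyte markers to 4.81 and 2.68 FPKM, with Cd79b at 1.42 and 0.752 and Cd79a at 0.870 and 0.620. Mesothelial markers summed to 3.33 and 2.32 FPKM, mostly Wt1 (2.40 and 2.07 FPKM) and Krt18 (0.823 and 0.171 FPKM), and Krt19 and Upk1b were listed at 0 in Ctrl. In these last 3 lists, 2, 1 and 1 genes were tested and none was called.

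**Figure D5:**
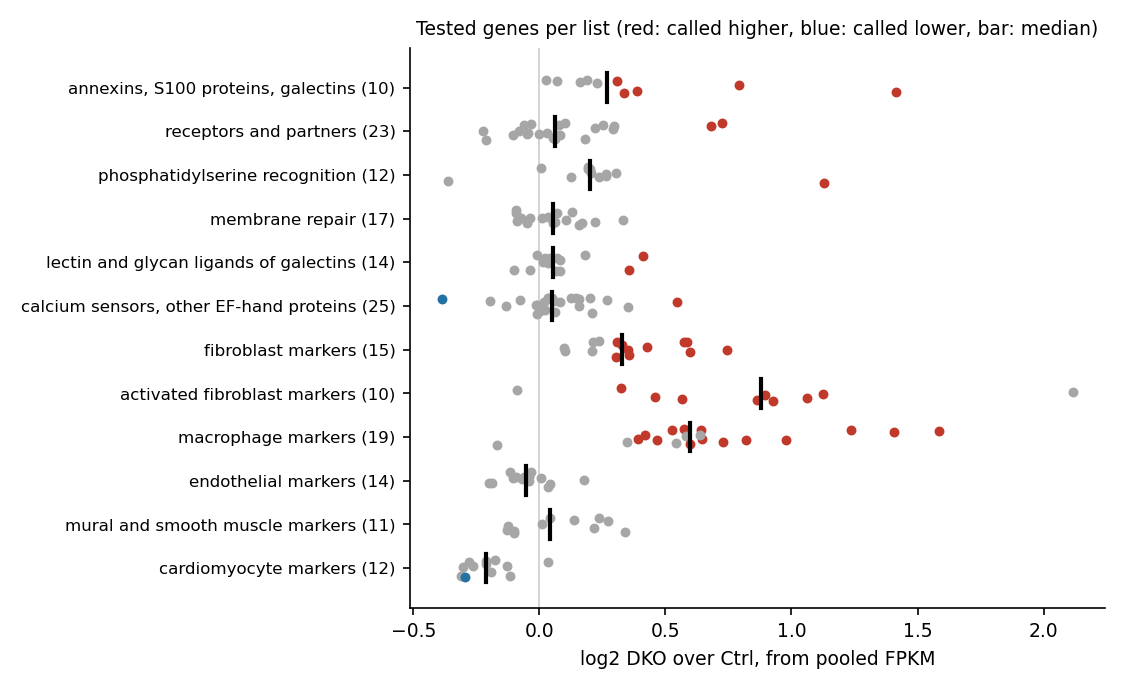
Log2 ratio of DKO over Ctrl of each tested gene, by list, with the number tested in parentheses; red points were called higher, blue points lower, and black bars are medians. All 10 annexins, S100 proteins and galectins of the list lie above 0, the fibroblast, activated fibroblast and macrophage medians lie above 0, and the endothelial and cardiomyocyte medians lie below 0.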

How the data were processed

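RNA of 4 DKO and 4 Ctrl ventricles was sequenced. The submitters' processing notes name TopHat2 2.0.9, Cufflinks 2.1.1, Cuffdiff 2.1.1 and the build mm9. The annotation, settings and read depth were not given in the sources used here. Depth is therefore unknown and no interval or detection floor was computed. The authors deposited FPKM values, 1 per genotype, with p-values and q-values of their Cuffdiff test, per the file headers. A p-value of 5e-05, the lowest in the gene table, is shared by many genes and does not rank them. The gene, isoform, start site and coding sequence tables were used here. The subset table was not needed.

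From the deposited FPKM values, folds and log2 ratios were recomputed without a pseudocount, and members of 18 lists were counted. The 10 genes and all lists were chosen with earlier results of these data known. No test was run here, because no value per animal was at hand. Named were all 10 genes, family members that were called or had at least 5 FPKM in either genotype, up to 4 called genes per partner list (or the 2 most abundant), and the 2 most abundant markers per cell type. Cox6a2, the single call of its list, and Anxa7 as the nearest uncalled gene were also named. S100a2, S100a3 and S100a5, neighbours of S100a4, and Upk1b, Krt19, Lgals3bp and Ahnak were named after their values were seen. Positions count from 1. In 2419 loci with 1 isoform the isoform was as long as the end minus the listed start, so listed starts count from 0. Counting of calls and motif search were tested on simulated data. Python 3.11.15, pandas 2.3.3, numpy 2.4.6 and matplotlib 3.10.9 were used.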

Additional observations from a re-analysis of the deposited data

How the results depend on the processing

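No paired analysis was possible because the deposited tables hold 1 value per genotype, and for the same reason no animal could be left out. The 5 called genes of the 10 became 2 at a q under 0.01, 3 at 1.3-fold or more and 2 at 1.5-fold or more. Of all tested genes, 2.74%, 3.60% and 2.13% were called higher under these 3 rules. Called annexins numbered 2, or 0 at a q under 0.01, 1 with a fold of at least 1.3 and 0 with a fold of at least 1.5. Called S100 genes numbered 2, or 1 with a fold of at least 1.5. Called galectins numbered 2, or 1 at a q under 0.01, with either fold, with at least 5 FPKM in both genotypes or from isoforms. Of tested genes with at least 5 FPKM in both genotypes, 3.20% were called higher. Of the 7 calls in the partner lists 3 had a fold of at least 1.5 and 4 had at least 5 FPKM in both genotypes, and of 33 calls in marker lists 17 had a fold of at least 1.5. Across all tested genes, 2.79% were called in either direction with a fold of at least 1.5. The 14 called rows of isoforms, start site groups and coding sequences all repeat the FPKM of their genes. They became 5 at a q under 0.01, 8 with a fold of at least 1.3 and 5 with a fold of at least 1.5. The shares of all isoforms, start site groups and coding sequences under these 3 rules were not computed. Nothing is read from these row counts. Thresholds of this kind can only remove calls. The median log2 ratio of the 10 genes stayed between 0.26 and 0.30 under the pseudocounts, rescalings and feature levels tried. Of 60 recomputed values of single genes none changed sign and 3 moved by over 1.5 times. Those 3 were Lgals3 with 5 FPKM added (0.58), S100a10 rescaled over genes at 10 FPKM or more (0.06) and S100a6 from its coding sequence (0.09). A pseudocount cannot change a sign, and both rescalings took off a median below 0 (-0.0042 and -0.0296), which only raises a ratio. Values from isoforms and coding sequences mostly equal those of the genes. The unchanged signs and the steady median were thus largely fixed by these settings, and nothing is read from them. Without values per animal, neither the folds, large or small, nor the isoform shares can be set here against the spread between mice.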
